A study of Mus musculus with 44 samples.

Results

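Heat shock proteins and their co-chaperones were followed in mouse kidney across the day, in animals with and without the clock gene Arntl. The 36 genes examined, of 24733 genes with any value above 0, were a named list covering the HSP70, HSP110, HSP90, chaperonin, small heat shock protein and J protein families, the HSP90 co-chaperones and 2 heat shock factors. Of these, 31 encode proteins of the cytosol or nucleus and 5 encode mitochondrial proteins (Hspa9, Hspd1, Hspe1, Trap1 and Dnaja3). All 36 were found in the deposited transcript table, and all 36 passed the filter for testing, which was a mean over the 24 libraries of 1 TPM or more. TPM is a level corrected for transcript length and scaled to the same total in each library, so levels of different genes can be set side by side.

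Polyadenylated RNA was sequenced from kidney of 129SV mice, 8 to 12 weeks old, that were fed only at night. Both genotypes were on this regimen: wild type (WT) and knockout (KO) of Bmal1, whose official symbol is Arntl. Sampling covered 6 zeitgeber times, from ZT0 (lights on) in steps of 4 h through ZT12 (lights off) to ZT20, and each of the 12 groups held 2 libraries, A and B. How the knockout allele was made, and the sex of the animals, are not given in the sources used here. The labels do not say whether A and B came from separate animals, so p-values measure the spread between these libraries. Bulk tissue RNA was measured, so fewer cells of a type and less RNA per cell cannot be told apart.

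HSP70 proteins bind stretches of unfolded protein in a cycle of ATP hydrolysis that J proteins start and nucleotide exchange factors reset. Clients such as kinases and steroid receptors pass on to HSP90, whose cycle is set by co-chaperones, while HSP60 and HSP10 form the folding chamber of the mitochondrial matrix. HSF1 is the transcription factor that raises these genes under heat or other protein stress, by binding inverted repeats of the letters GAA. In mouse liver, chaperone genes are known to follow the daily rhythms of feeding and body temperature.

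The labels were first checked on clock genes. Arntl in WT was at 12.9 and 12.4 TPM at ZT0, 6.16 and 4.71 at ZT4, 0.690 and 0.527 at ZT8, 0.295 and 0.527 at ZT12, 1.74 and 2.03 at ZT16, and 9.38 and 8.24 at ZT20. In KO it lay between 4.19 and 6.28 TPM at all times, so its 24-h rhythm differed between the genotypes (limma, adjusted p = 1.04e-09), while its level in KO was not low (limma, genotype, adjusted p = 0.057) and does not check the deletion. Clock genes went against 1 label: in KO ZT4 A as labelled, Cry1 was at 1.03 TPM and Nr1d1 at 23.8 TPM, against 11.5 to 17.8 and 1.24 to 3.46 TPM in the other 11 KO libraries. In WT at ZT4, Cry1 was at 1.203 and 0.845 TPM and Nr1d1 at 22.0 and 33.0 TPM, so both genes in that library were at WT levels of its time. It was counted as KO, as labelled, unless stated. In KO ZT12 A, 4 Y-linked genes summed to 3.31 TPM, against 53.4 to 69.1 TPM in the other KO libraries and 48.0 to 57.8 TPM in WT. Where leaving out both of these libraries changed a call in level or in the wave of WT or KO, the value without them is given. For the wave shared by both genotypes only the count without them is given. Marker sums of other tissues were low (skeletal muscle at most 2.42 TPM, with Ckm and Myh4 at or near 0). The adipocyte markers ranged from 0.062 to 29.5 TPM, the highest being KO ZT12 A. Sums of kidney markers overlapped between genotypes for every list. Only those of the distal convoluted tubule lay apart when KO ZT4 A and KO ZT12 A were left out. In WT, 7 proximal tubule genes summed to 3841 to 4423 TPM, against 2995 to 4165 TPM in KO and 3210 to 4070 TPM in the 10 other KO libraries. The 5 podocyte genes summed to 62.8 to 88.5 TPM in WT, 84.8 to 125.4 in KO and 84.8 to 115.2 in the 10. For 3 distal convoluted tubule genes the sums were 169.4 to 233.9 TPM in WT, 176.2 to 320.4 in KO and 239.1 to 320.4 in the 10, so these did not overlap with WT. The 4 collecting duct genes had medians of 246.9 TPM in WT and 325.7 in KO, with overlapping ranges. Thick ascending limb genes summed to 1140 to 1737 TPM in WT and 1183 to 1432 in KO. Ranges also overlapped for endothelium (64.2 to 91.9 and 60.9 to 106.5), leukocytes (17.4 to 71.3 and 22.3 to 32.4) and fibroblasts (36.5 to 64.9 and 32.1 to 94.6). Immediate early genes summed to 42.7 to 77.8 TPM in WT and 41.8 to 65.3 in KO, highest there in KO ZT12 A. The part of these cell types in the results below was not tested.

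The promoter letters of the members are given first, because HSF1 acts through them. RefSeq windows of 250 bases before to 50 bases after the start (GRCm38.p6) were present for 31 of the 36 genes, all but Hspa8, Hspa9, Hsp90aa1, Hsp90ab1 and Hsf1. A pair of facing units (TTCNNGAA or GAANNTTC, both strands) occurred in the windows of 15 of these 31 genes and in 17.0% of 27025 genes with a window. A run of 3 units, made of 2 overlapping pairs with 2 bases between neighbouring units, occurred in 5 members, Chordc1, Hsph1, Dnajb6, Hspd1 and Hspe1, and in 0.662% of all genes. The E-box CACGTG, the letters that clock activators bind, occurred in 3 members (Hsph1, Hspd1 and Hsf2) and in 8.09% of all genes. A match of letters is a description and not a bound site.

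The 30-base stretches below hold the repeats of 6 members, with the GAA and TTC units in capitals, read 5′ to 3′ on the strand of the gene. They are shown because 3 of them belong to the members with a daily wave in WT described next (Chordc1, Hsph1 and Hspe1), 1 to a member without such a call (Dnajb6), and 2 to the near-identical inducible HSP70 genes.
Chordc1: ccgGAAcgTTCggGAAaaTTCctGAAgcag
Hsph1: gctgcagaTTCtgGAAagTTCtcctcagta
Dnajb6: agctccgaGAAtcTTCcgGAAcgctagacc
Hspe1: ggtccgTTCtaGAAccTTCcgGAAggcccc
Hspa1a: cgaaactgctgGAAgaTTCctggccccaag
Hspa1b: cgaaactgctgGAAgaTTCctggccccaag

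The Chordc1 stretch (chr9:18292260-18292289, plus strand) had 5 units in a row and lay from 7 bases before to 23 bases after the RefSeq start. The Hsph1 stretch (chr5:149636279-149636308, minus strand) had 3 units and lay 8 to 37 bases after the start. That of Dnajb6 (chr5:29735844-29735873, plus strand) had 3 units and lay 135 to 106 bases before the start. These 3 stretches lay wholly in annotated exons of their genes (GENCODE M21). The Hspe1 stretch (chr1:55088053-55088082, plus strand) had 4 units and lay 95 to 66 bases before the start. It is also inside the window of Hspd1, which is transcribed the other way from the same region. Both Hspa1 stretches lay 115 to 86 bases before their starts, on the minus strand of chromosome 17 (chr17:34972242-34972271 for Hspa1a and chr17:34959324-34959353 for Hspa1b), had the same 30 letters, and held 1 pair each.

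The first comparison was over time in WT. Of the 36 members, 15 had a 24-h wave (limma, cosine and sine terms, Benjamini-Hochberg adjusted p under 0.05 over 12874 genes), against 13.7% of all genes tested. They were 13 of the 31 cytosolic and nuclear members and 2 of the 5 mitochondrial ones. All 15 had fitted peaks between 19.0 and 22.4 h, in the dark phase when the mice were fed, whereas 47.4% of the 1761 genes with a wave in WT peaked between 18 and 24 h. By role, the wave was called for 5 of 6 HSP90 co-chaperones (Chordc1, Stip1, Ahsa1, Fkbp4 and Ptges3), both cytosolic HSP90 genes, 3 of 9 J proteins (Dnaja1, Dnaja4 and Dnajb2), both chaperonin genes, 2 of 6 HSP110 and exchange factor genes (Hspa4l and Hsph1), Hsf1, and none of the 6 HSP70 or 2 small heat shock protein genes.

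**Figure D1:**
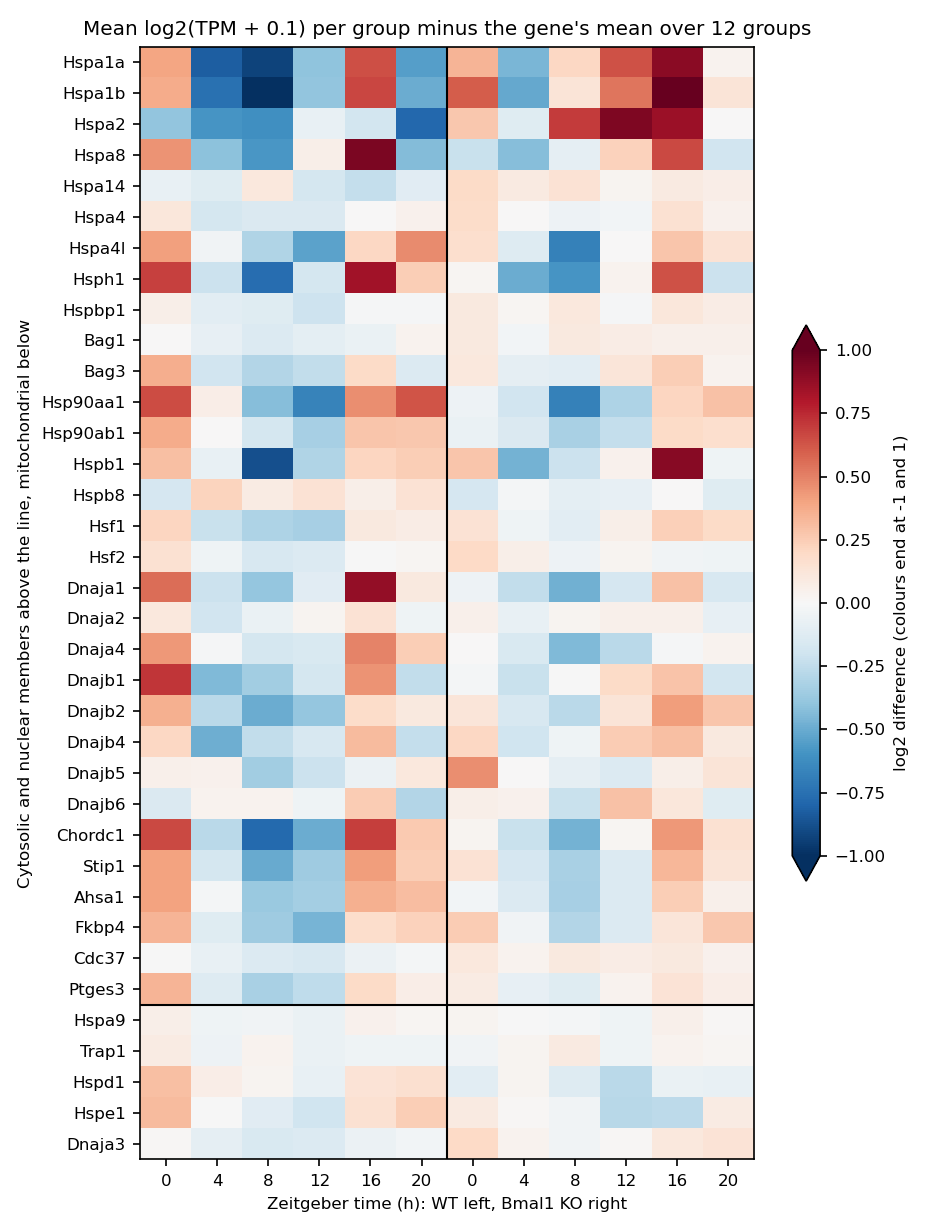
Heat map of the 36 members in the 12 groups (columns: 6 zeitgeber times in WT, then in KO), where colour is the mean log2(TPM + 0.1) of 2 libraries minus the gene's mean over the 12 groups, and the colours end at -1 and 1. The cytosolic rows are mostly low at ZT4, ZT8 and ZT12 and high at ZT16 and ZT0 in WT, and the 5 mitochondrial rows below the line are paler.

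Fkbp4, an immunophilin that links HSP90 to steroid receptors, had the smallest p. In WT it was at 143.4 and 135.4 TPM at ZT0, 109.4 and 93.5 at ZT4, 86.5 and 85.2 at ZT8, 86.8 and 73.0 at ZT12, 127.8 and 121.0 at ZT16, and 125.1 and 132.8 at ZT20. The 6 libraries of ZT16, ZT20 and ZT0 thus all lay above the 6 of ZT4, ZT8 and ZT12. Its fitted peak-to-trough size was 0.81 ± 0.09 (standard error, log2), peaking at 21.4 h (limma adjusted p = 2.33e-05). In KO it was at 127.4 and 135.0 TPM at ZT0, 88.8 and 90.1 at ZT8, and 131.9 and 133.2 at ZT20, so these ZT8 libraries were again the lower ones. The KO wave was 0.58 ± 0.09 log2, peaking at 20.9 h (limma adjusted p = 0.0034).

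Hsp90aa1, the stress-inducible cytosolic HSP90, had one of the largest swings. In WT it was at 421.2 and 389.3 TPM at ZT0, 287.5 and 254.8 at ZT4, 190.1 and 193.5 at ZT8, 166.8 and 157.9 at ZT12, 381.2 and 330.9 at ZT16, and 335.3 and 476.2 at ZT20. Both ZT12 libraries were the lowest, and the highest group mean was 2.50 times the lowest. Of this TPM, 48.5% was assigned to a retained-intron transcript, and the protein-coding transcripts had a mean of 136.2 TPM in WT against 298.7 for all. The fitted size was 1.38 ± 0.17 log2, with a peak at 21.5 h (limma adjusted p = 8.14e-05), and 1.35 log2 with protein-coding transcripts alone. In KO it was at 263.6 and 236.0 TPM at ZT0, 278.7 and 182.5 at ZT4, 158.0 and 165.0 at ZT8, 239.5 and 181.9 at ZT12, 299.2 and 298.3 at ZT16, and 308.7 and 324.9 at ZT20. The 4 KO libraries of ZT16 and ZT20 were above the other 8, and every KO library of ZT0 lay below both WT libraries of that time. The KO wave was 0.87 ± 0.17 log2 at 19.6 h (limma adjusted p = 0.0171). It did not pass without KO ZT8 A or KO ZT8 B (adjusted p up to 0.0534), and without both doubted libraries its adjusted p was 0.00328.

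Hsp90ab1, the constitutive form, had a smaller fitted wave. WT values ran from 287.0 and 262.4 TPM at ZT12 to 470.3 and 423.1 at ZT0, with 303.6 and 309.1 at ZT8, 439.5 and 399.1 at ZT16, and 397.0 and 437.6 at ZT20. The WT wave was 0.67 ± 0.12 log2 at 21.4 h (limma adjusted p = 0.00208). In KO the lowest, median and highest libraries were at 274.4, 328.4 and 433.5 TPM, and the wave was 0.51 ± 0.12 log2 at 19.3 h (limma adjusted p = 0.0406). That KO call was lost without any 1 of 12 libraries (adjusted p up to 0.108), and with median-of-ratios scaling (0.0559), and was kept without both doubted libraries (0.0176).

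Of the 5 other HSP90 co-chaperones, 4 had a wave in WT. Chordc1, an HSP90 partner whose name comes from its CHORD domains, was at 31.7 and 26.9 TPM at ZT0, 15.7 and 14.8 at ZT4, 9.62 and 11.8 at ZT8, 12.3 and 13.7 at ZT12, 31.8 and 27.8 at ZT16, and 21.9 and 22.4 at ZT20 in WT. Its 2 highest times were thus parted by a lower ZT20, and its WT wave, 1.41 ± 0.22 log2 at 20.3 h, was the largest of the 36 (limma adjusted p = 0.000996). In KO its libraries ran from 12.7 to 25.5 TPM, and the wave of 0.74 ± 0.22 log2 did not pass (limma adjusted p = 0.121). Stip1 (HOP), which hands clients from HSP70 to HSP90, ran in WT from 25.3 and 24.3 TPM at ZT8 to 50.9 and 42.8 at ZT0 and 50.4 and 44.2 at ZT16. Ahsa1, the activator of the HSP90 ATPase, ran from 36.6 and 37.4 TPM at ZT8 to 66.8 and 59.6 at ZT0. Both waves in WT passed, at 0.96 ± 0.14 log2 and 20.4 h for Stip1 (limma adjusted p = 0.000452) and 0.85 ± 0.12 log2 and 20.97 h for Ahsa1 (0.000392). In KO, Stip1 was at 27.5 to 49.5 TPM and Ahsa1 at 37.5 to 58.2 TPM, with adjusted p of 0.0528 and 0.0840. Without both doubted libraries Ahsa1 passed in KO (0.0482) and Stip1 did not (0.0641), while Stip1 passed with protein-coding transcripts alone (0.0426) and with libraries rescaled by the median of ratios (0.0459) or without the 20 most abundant genes (0.0387).

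Ptges3 (p23), which closes the HSP90 cycle, had a WT wave of 0.59 ± 0.11 log2 at 21.05 h (limma adjusted p = 0.00436), from 37.3 and 44.0 TPM at ZT8 to 64.7 and 63.8 at ZT0. Its values are uncertain because a processed copy, Ptges3-ps, was itself listed at a mean of 41.3 TPM in WT and 39.8 in KO, and 73.8% of the 31-base words of that copy are also in the main Ptges3 transcript. Cdc37, the kinase-specific co-chaperone, stayed between 31.8 and 36.2 TPM in WT and did not pass (limma adjusted p = 0.0762), but passed without KO ZT4 A (0.0436), without both doubted KO libraries (0.0391) and with WT fitted alone (0.026).

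Among the J proteins, which deliver clients to HSP70, Dnajb2 had a wave in both genotypes. In WT it was at 29.4 and 26.3 TPM at ZT0, 19.0 and 16.9 at ZT4, 15.4 and 15.3 at ZT8, 16.8 and 16.2 at ZT12, 26.6 and 22.9 at ZT16, and 23.4 and 22.9 at ZT20. The 6 libraries from ZT16 to ZT0 were all above the 6 from ZT4 to ZT12, and the wave was 0.81 ± 0.12 log2 at 20.8 h (limma adjusted p = 0.00052). In KO the lowest values were 18.5 and 17.5 TPM at ZT8 and the highest 33.8 and 24.8 at ZT16, a wave of 0.65 ± 0.12 log2 at 17.9 h (limma adjusted p = 0.0131). Dnaja4 passed in WT (0.64 ± 0.13 log2, limma adjusted p = 0.00697), with 15.1 and 12.3 TPM at ZT16 and a lowest library, ZT8 A, at 8.08. Dnaja1 passed narrowly (0.94 ± 0.26 log2, adjusted p = 0.0441), and 14 of the 24 libraries each ended that call when left out (up to 0.108), as did rescaling without the 20 most abundant genes (0.0536). The waves of Hspa4l, an HSP110 relative (0.996 ± 0.192 log2, limma adjusted p = 0.00456), and Hsph1, HSP110 itself (1.31 ± 0.34 log2, 0.0367), peaked at 21.6 and 19.7 h. Hsph1 lost its call without any 1 of the 10 WT libraries of ZT0 to ZT16 (up to 0.119).

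Hsf1, the heat shock factor that controls many of these genes, had a wave of its own. In WT it was at 13.3 and 14.1 TPM at ZT0, 10.5 and 9.67 at ZT4, 8.70 and 10.4 at ZT8, 9.10 and 9.62 at ZT12, 12.6 and 12.7 at ZT16, and 12.9 and 12.0 at ZT20. All 6 libraries of ZT16, ZT20 and ZT0 were above the 6 others, and the fitted size was 0.56 ± 0.11 log2 at 20.9 h (limma adjusted p = 0.00472). In KO the libraries ran from 10.5 to 16.2 TPM with a median of 12.3, and the wave of 0.34 ± 0.11 log2 did not pass (limma adjusted p = 0.143). With time as a 6-level factor the WT call was lost (adjusted p = 0.0555). Hsf2, which binds the same letters, was at 3.87 to 5.55 TPM in WT and 4.48 to 6.05 TPM in KO and passed in neither (limma adjusted p = 0.181 and 0.603).

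**Figure D2:**
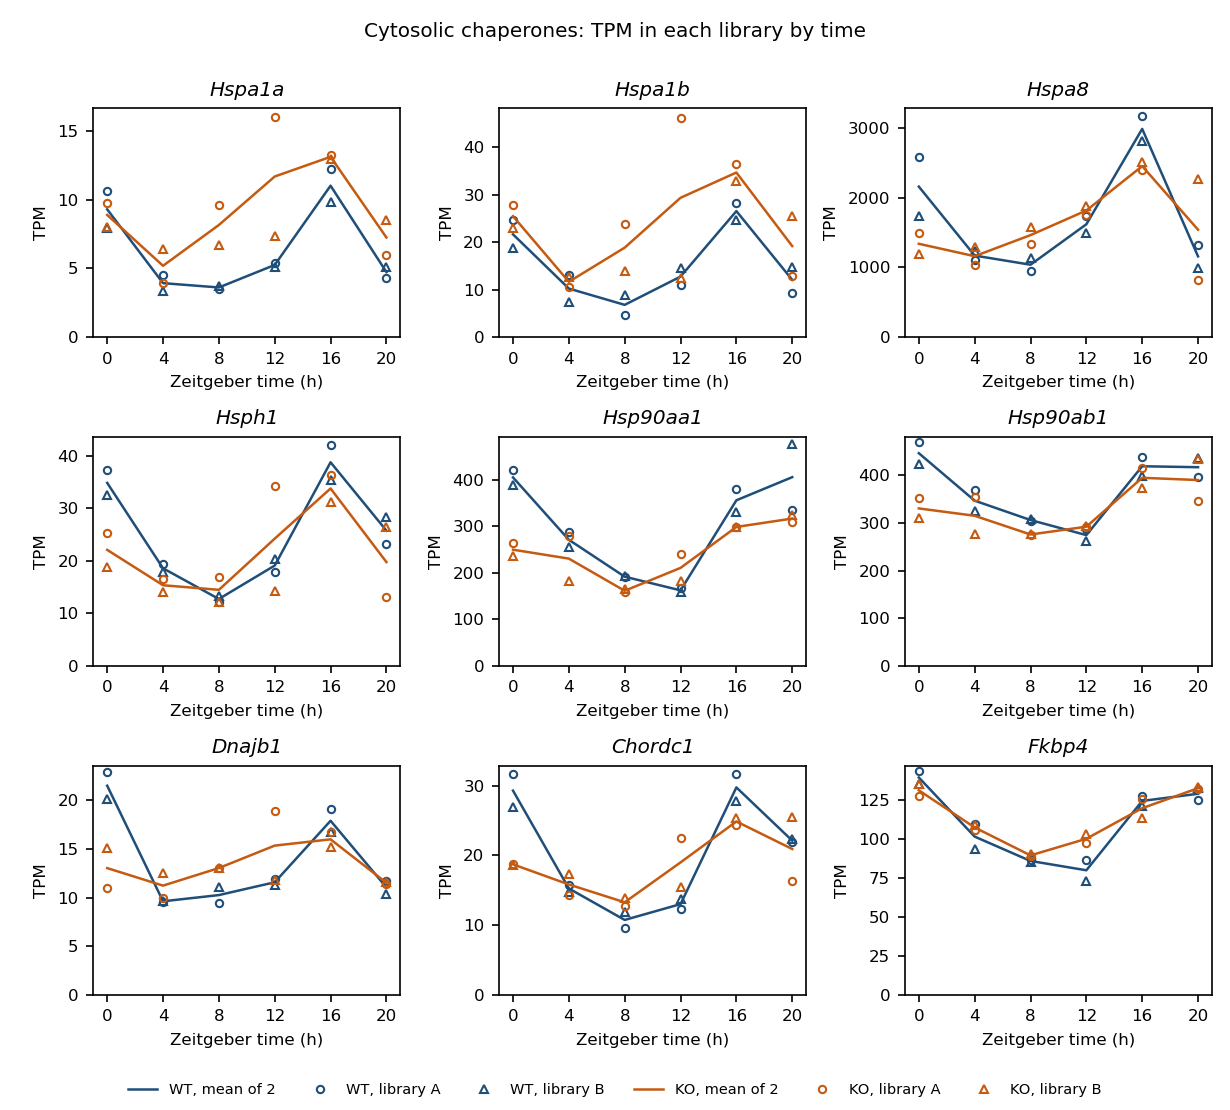
TPM of 9 cytosolic chaperone genes against zeitgeber time (h), with each library as a point (circle A, triangle B) and each line through the mean of 2 libraries, WT in blue and KO in orange. In WT, Hspa1a, Hspa1b, Hspa8, Dnajb1 and Chordc1 are lower at ZT20 than at ZT16 and ZT0, while Hsp90aa1 is not; the KO libraries A and B at ZT12 and ZT20 are far apart for several genes.

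The inducible HSP70 genes had 2 high times in WT and a low ZT20 between them. Some members with a 24-h wave had this order too (Hsph1, Dnaja1, Chordc1 and Ptges3). Time courses were not tested between genes. Hspa1a was at 10.7 and 7.94 TPM at ZT0, 4.49 and 3.37 at ZT4, 3.49 and 3.74 at ZT8, 5.44 and 5.08 at ZT12, 12.2 and 9.84 at ZT16, and 4.34 and 5.14 at ZT20. Hspa1b was at 24.6 and 18.7 TPM at ZT0, 4.68 and 8.91 at ZT8, 28.3 and 24.8 at ZT16, and 9.35 and 14.8 at ZT20. The ZT16 and ZT0 libraries of both genes lay above all other WT libraries. The 24-h cosine missed the threshold for both (limma adjusted p = 0.160 and 0.181), while a fit with time as a 6-level factor, which called 4.47% of all genes in WT, called Hspa1a (adjusted p = 0.023) and not Hspa1b (0.162). The paired genes lie side by side on chromosome 17 and shared 63.8% and 67.6% of their 31-base words, so their separate levels are uncertain.

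Hspa8, the constitutive HSC70, was the most abundant member, and Dnajb1 is the J protein that works with it on aggregates; both are described in full after their values were seen. Hspa8 in WT was at 2579 and 1742 TPM at ZT0, 1101 and 1240 at ZT4, 942.0 and 1136 at ZT8, 1745 and 1494 at ZT12, 3169 and 2809 at ZT16, and 1319 and 998.9 at ZT20. Dnajb1 in WT was at 22.9 and 20.1 TPM at ZT0, 19.1 and 16.7 at ZT16, and 11.8 and 10.3 at ZT20, with 9.48 to 11.9 TPM in the 6 libraries of ZT4, ZT8 and ZT12. The cosine passed for neither (limma adjusted p = 0.255 and 0.210), and the 6-level factor called Dnajb1 (0.006) and not Hspa8 (0.0555). Of the Hspa8 TPM, 41.2% was assigned to a retained-intron transcript of 456 bases. With protein-coding transcripts alone the WT swing of Hspa8 was 0.90 log2, against 0.88 with all.

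Over the whole list, 13 of the 36 members had both ZT0 and both ZT16 libraries above both ZT20 libraries in WT, against 7.85% of all genes. They were Hspa1a, Hspa1b, Hspa2, Hspa8, Hsph1, Bag3, Dnaja1, Dnaja2, Dnajb1, Dnajb4, Dnajb6, Chordc1 and Ptges3. In KO this order was found for 0 of 36 members and 11.1% of all genes. A single wide pair breaks the order, and several KO pairs were wide, such as Hspa8 at KO ZT20 (816.6 and 2267 TPM). This order was chosen after the values were seen. A contrast of ZT20 with the mean of ZT16 and ZT0 called 0 members in WT (limma, 8 at an unadjusted p under 0.05) and 0 in KO (1 unadjusted), with 0% of all genes called in either. In KO the contrast was also below 0 for all of the listed members, from -0.04 (Ptges3) to -0.71 log2 (Hspa1b). Its size was smaller than in WT for all but Hsph1 (-0.54 against -0.51) and Hspa2 (-0.55 against -0.50). These members were listed by their WT values, a choice that favours a larger size in WT. The largest contrasts in WT by p were Dnajb1 (-0.82 ± 0.16 log2, adjusted p = 0.517), Hspa1a (-1.07 ± 0.27) and Hspa8 (-1.13 ± 0.29). Without both doubted KO libraries Dnajb1 passed (adjusted p = 0.029). Neither of those libraries is from a group in the WT contrast, so only its spread and the adjustment changed, not its size. The share of all genes passing without them is not given here. The difference of the ZT20 contrast between genotypes passed for 0 members (limma, 1 unadjusted) and 0.0155% of genes. A 12-h wave passed for 0 members and 0% of genes in each genotype (2 members unadjusted in WT, Hspa8 and Chordc1, and 0 in KO).

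The mitochondrial members were flatter. Their ratio of highest to lowest group mean in WT had a median of 1.12, against 1.69 for the 31 cytosolic and nuclear members. All 5 had their highest WT mean at ZT0, as did 13 of the 31 others. In KO, 2 of the 5 and 5 of the 31 were highest at ZT0. The share over all genes is not given here. Hspe1 (HSP10), the lid of the chaperonin chamber, was at 226.9 and 219.2 TPM at ZT0, 190.0 and 166.5 at ZT4, 165.3 and 164.8 at ZT8, 159.7 and 151.3 at ZT12, 210.0 and 188.0 at ZT16, and 196.7 and 227.4 at ZT20 in WT. It was lowest at ZT12 and had a wave of 0.51 ± 0.09 log2 at 21.6 h (limma adjusted p = 0.00303). Hspd1 (HSP60), the chamber itself, ran in WT from 205.2 and 187.4 TPM at ZT12 to 258.0 and 250.8 at ZT0, with a wave of 0.30 ± 0.08 log2 (limma adjusted p = 0.0452). That call ended without any 1 of 15 libraries (up to 0.139), with median-of-ratios scaling (0.216) and without the 20 most abundant genes (0.187). The annotated ends of this divergent pair overlap, and whether the reads keep strand is not given in the sources used here. In KO the Hspe1 libraries ran from 138.5 to 202.7 TPM, and its wave there (0.38 log2 at 0.897 h, limma adjusted p = 0.0509) lay at the threshold. It passed with protein-coding transcripts alone (0.0413), without the 20 most abundant genes (0.0459), and without WT ZT4 B, WT ZT20 A, KO ZT4 B or KO ZT8 A (down to 0.0283).

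Hspa9 (mortalin), the matrix HSP70 that pulls proteins in, was at 196.9 to 225.1 TPM in WT and 202.8 to 227.7 TPM in KO, with no wave called (limma adjusted p = 0.325 and 0.717). Trap1, the mitochondrial HSP90, was at 92.4 to 106.0 and 90.3 to 109.0 TPM (adjusted p = 0.629 and 0.893). Dnaja3, the matrix J protein, was at 43.3 to 49.8 TPM in WT and 44.7 to 56.1 TPM in KO (adjusted p = 0.165 and 0.0931). Their ranges overlapped between the genotypes. The KO wave of Dnaja3 passed with median-of-ratios scaling (limma adjusted p = 0.0269), without the 20 most abundant genes (0.0387) and without KO ZT4 A (0.0421). With both genotypes in one shared wave, 19 members passed (16 cytosolic or nuclear and 3 mitochondrial: Hspd1, Hspe1 and Dnaja3), against 17.5% of all genes. In this fit Dnaja3 had a size of 0.19 ± 0.04 log2 at 21.4 h (adjusted p = 0.00933). The shared call of Hspa4, an HSP110 relative (0.23 log2, adjusted p = 0.0378), ended without any 1 of 11 libraries (up to 0.0786). That of Hspd1 ended without WT ZT0 A, WT ZT0 B, WT ZT12 B or KO ZT12 A (up to 0.0676).

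**Figure D3:**
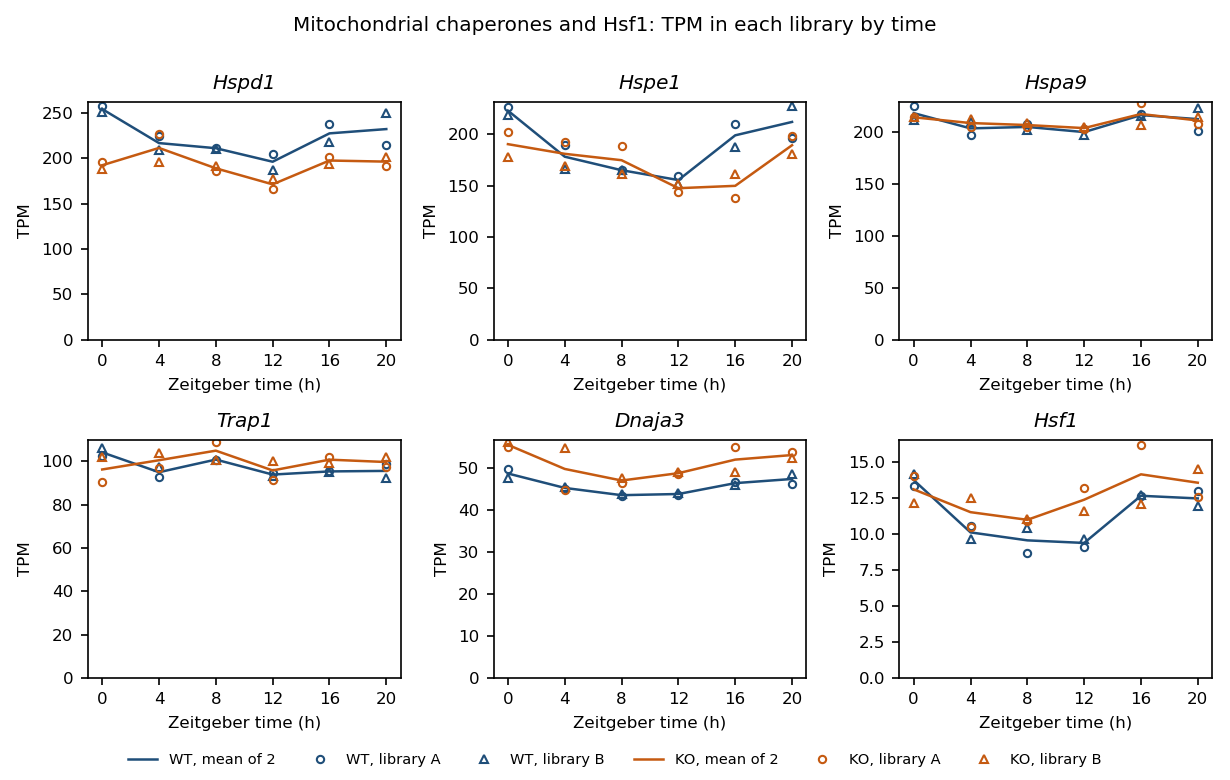
TPM of the 5 mitochondrial chaperone genes and Hsf1 against zeitgeber time (h), with circles for library A, triangles for library B and lines through the mean of 2 libraries, WT in blue and KO in orange; each axis starts at 0. Hspd1 is lower in KO at each of the 6 times by group mean, Hspa9 and Trap1 are nearly flat, and Dnaja3 is higher in KO at each time.

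The next question was whether the daily wave depended on Arntl. Taken alone, KO had 4 members with a wave on the deposited scale (Fkbp4, Dnajb2, Hsp90aa1 and Hsp90ab1), all cytosolic, against 3.64% of all genes. The mitochondrial Hspe1 lay at the threshold (limma adjusted p = 0.0509). The mitochondrial Dnaja3 passed with median-of-ratios scaling (0.0269) and without the 20 most abundant genes (0.0387). The difference in rhythm between the genotypes passed for 0 of the 36 members (limma, 6 at an unadjusted p under 0.05) and for 0.629% of all genes, so the 15 calls in WT against 4 in KO do not show that the waves differ. The fitted size was smaller in KO for 32 of the 36 members and for 7531 of the 12874 genes tested. Among the 15 members chosen by their WT call all 15 were smaller in KO, which that choice favours. Of these, 12 had an earlier fitted KO peak, by a median over the 15 of -2.14 h (from -2.91 to 3.29 h). The standard errors of the KO peaks of the 15 ran from 0.59 h (Fkbp4) to 1.95 h (Dnaja1). How many of all genes had an earlier KO peak is not given here. The 6 with an unadjusted p under 0.05 were Dnajb2, Ahsa1, Hsp90aa1, Hspe1, Chordc1 and Ptges3, with adjusted p from 0.228 to 0.348. A fit of the KO libraries alone called 1 member (Fkbp4, limma adjusted p = 0.0175) and 0.0932% of all genes, and without both doubted libraries 2 members and 0.0854%. The WT libraries alone gave 18 members and 22.1% of all genes, adding Bag1, Hspb1, Dnaja3 and Cdc37 and losing Dnaja1 (0.0765). With time as a 6-level factor, 14 members passed in WT, with Hspa1a and Dnajb1 added and Hsf1, Hsph1 (0.0651) and Hspd1 (0.128) lost. In that fit 1 member passed in KO (Fkbp4) and 0.217% of all genes, 0 members and 0.179% of genes for the difference, and 18 members and 6.19% of genes over both genotypes.

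The 2 libraries of a KO group also lay further apart. The median standard deviation within groups was 0.171 log2 in KO and 0.102 in WT over the 36 members, larger in KO for 30 of them, and 0.169 and 0.113 over all genes. Over the 4 times without a doubted library it was 0.163 in KO and 0.102 in WT for the members, larger in KO for 29 of them, and 0.147 and 0.107 for all genes. The widest pairs were Hspa1b at KO ZT12, with 46.2 TPM in A and 12.6 in B, and Hspa8 at KO ZT20, with 816.6 in A and 2267 in B. At KO ZT20, Hsph1 was likewise at 13.0 and 26.5 TPM. KO ZT12 A is the library with few Y-linked reads, and without both doubted libraries KO had 6 members with a wave (4.75% of all genes), adding Hspa4l (adjusted p = 0.00991) and Ahsa1. The same fit called 16 members and 19.9% of all genes in WT, 21 and 25.1% over both genotypes, and 0 and 0.660% for the difference.

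**Figure D4:**
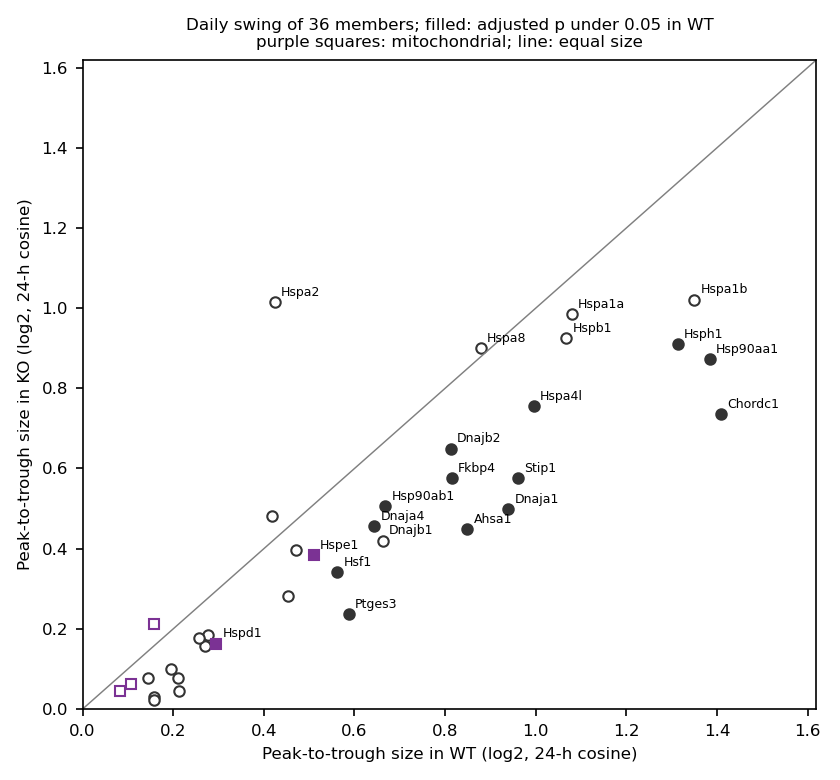
Fitted 24-h peak-to-trough size (log2) of the 36 members in WT (x axis) and KO (y axis), one point per gene, filled where the WT wave passed (adjusted p under 0.05), with purple squares for the 5 mitochondrial genes and a line of equal size. Of the 36 points 32 lie below the line, as 7531 of 12874 genes do; the filled points were chosen by their WT wave, and Hspa2 lies far above the line.

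Levels were then compared between genotypes at all times together. Of the 36 members, 17 passed (limma with time as a factor), against 60.9% of all genes: 11 were higher in KO and 6 lower, against 50.9% and 10.0% of all genes. The median KO minus WT difference was 0.04 log2 for the members and 0.15 for all genes. With median-of-ratios scaling, where the median of all genes was near 0, 2 members were higher and 13 lower, against 22.1% and 22.2% of all genes, and the members' median was -0.11. Only calls that held under 3 scalings (as deposited, median of ratios, and rescaled without the 20 most abundant genes) are described as changes. By this rule 2 members rose in KO (Hspa1a and Hspa2) and 6 fell (Dnaja1, Dnaja4, Hsp90aa1, Hsp90ab1, Hspd1 and Hspe1). The share of all genes that held under the 3 scalings is not given here, so these counts do not set the members apart.

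**Figure D5:**
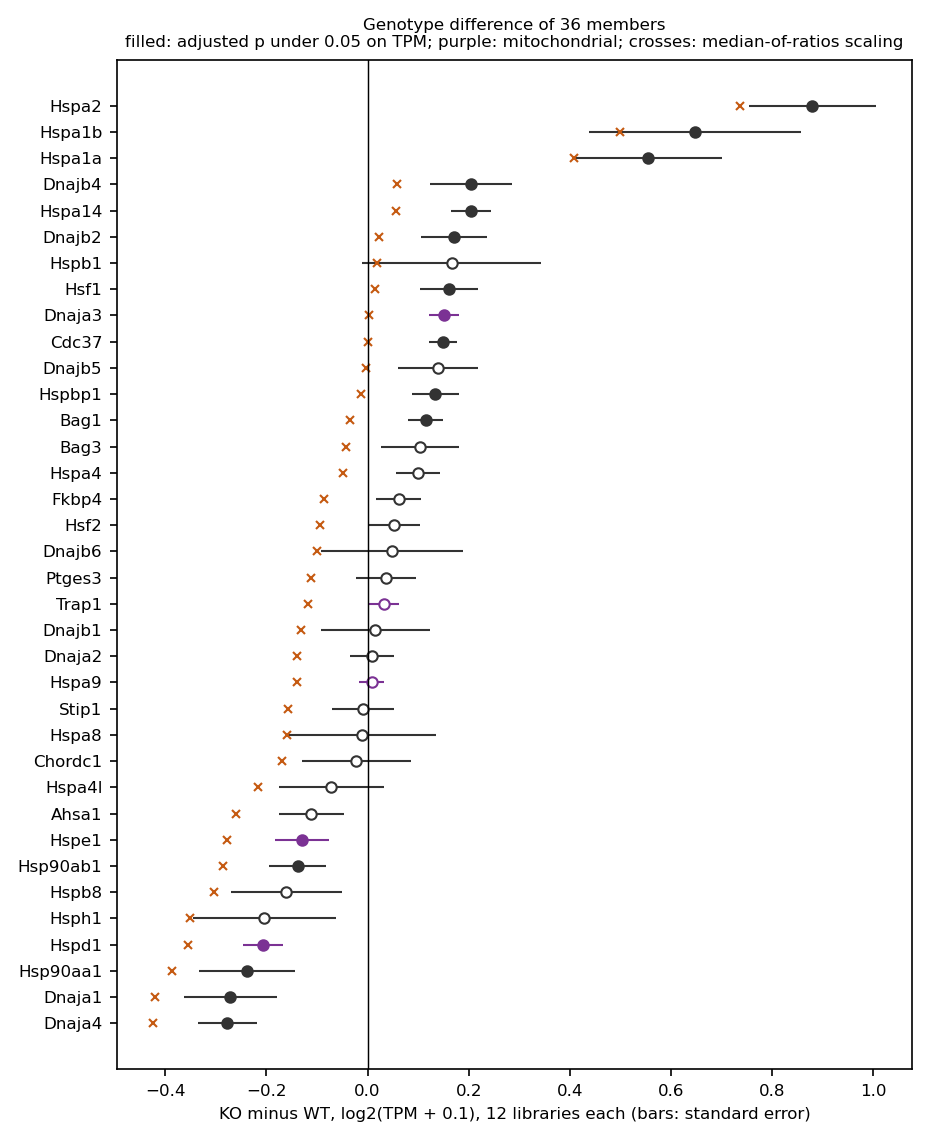
KO minus WT difference (log2, x axis) of each of the 36 members, sorted, with standard errors; filled points passed on the deposited TPM scale, purple marks the mitochondrial genes, and crosses give the same difference after median-of-ratios scaling. Hspa2, Hspa1b and Hspa1a stand to the right at 0.55 to 0.88 log2, and all crosses lie to the left of their points.

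Hspa2, an HSP70 best known from the testis, was the member with the largest change. It was at 1.82 and 1.95 TPM at ZT0, 1.61 and 1.65 at ZT4, 1.61 and 1.60 at ZT8, 2.54 and 2.20 at ZT12, 2.26 and 2.13 at ZT16, and 1.46 and 1.36 at ZT20 in WT. In KO it was at 3.16 and 2.91 TPM at ZT0, 1.36 and 3.82 at ZT4, 4.77 and 3.57 at ZT8, 5.39 and 4.42 at ZT12, 5.04 and 4.20 at ZT16, and 2.12 and 2.98 at ZT20. At every time but ZT4 both KO libraries were above both WT ones, and the exception was KO ZT4 A, the library whose clock genes went against its label. The difference was 0.88 ± 0.13 log2 (limma adjusted p = 1.08e-05), and 0.97 without both doubted libraries (3.03e-08). It was also the member whose KO wave was larger than its WT wave by the most (1.02 against 0.42 log2), with neither passing (limma adjusted p = 0.0819 and 0.521). Its shared wave peaked at 12.8 h (adjusted p = 0.0361), apart from the other members, and did not pass without WT ZT12 A, WT ZT16 A, KO ZT12 A, KO ZT12 B or KO ZT16 A (up to 0.0661).

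Hspa1a rose by 0.55 ± 0.15 log2 in KO (limma adjusted p = 0.00322). The lowest, median and highest libraries were at 3.37, 5.11 and 12.2 TPM in WT and 3.97, 8.25 and 16.05 in KO, so the groups overlapped. At ZT8 the KO libraries were at 9.63 and 6.71 TPM against 3.49 and 3.74 in WT, the widest separation without a doubted library. At ZT0 they were at 9.80 and 8.00 TPM against 10.7 and 7.94, and at ZT4 at 3.97 and 6.42 against 4.49 and 3.37, so these times overlapped. At ZT12 they were at 16.05 (the doubted KO ZT12 A) and 7.36 TPM against 5.44 and 5.08. At ZT16 they were at 13.3 and 13.0 TPM against 12.2 and 9.84, and at ZT20 at 6.01 and 8.50 against 4.34 and 5.14. Hspa1b followed, with 4.68, 13.8 and 28.3 TPM in WT and 10.6, 23.5 and 46.2 in KO (0.65 ± 0.21 log2, adjusted p = 0.0127), but missed the threshold under median-of-ratios scaling (0.0542). Summed as 1 gene, the pair was higher in KO by 0.62 ± 0.19 log2 (adjusted p = 0.00771). Without both doubted libraries the differences were 0.51 for Hspa1a (0.00161) and 0.56 for Hspa1b (0.0173).

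The 6 genes that fell were all among the 15 with a wave in WT. The share of genes with a WT wave among all genes lower in KO is not given here. With median-of-ratios scaling, Hsph1, Stip1 and Ahsa1, which had a WT wave, were also called lower. So were Hspa9, Trap1, Dnaja2 and Hspb8, which had no WT wave called. Hspd1 had a lowest, median and highest of 187.4, 216.4 and 258.0 TPM in WT and 165.7, 192.7 and 227.1 in KO, and its KO mean was lower at each of the 6 times. It fell by 0.21 ± 0.04 on the log2 scale (limma adjusted p = 0.000215). Its partner Hspe1 (188.8 ± 27.4 TPM in WT and 172.2 ± 21.4 in KO, SD, n = 12) changed by -0.13 ± 0.05 log2, a call on the deposited scale that 14 libraries each ended (adjusted p = 0.045, up to 0.0913). Dnaja4, a J protein, was at 8.08, 10.6 and 15.1 TPM in WT and 6.62, 8.87 and 10.6 in KO (-0.28 ± 0.06 log2, limma adjusted p = 0.000457). Dnaja1 was at 110.6, 149.2 and 306.2 TPM in WT and 100.4, 124.6 and 193.4 in KO (-0.27 ± 0.09, adjusted p = 0.016). Hsp90aa1 (-0.24 ± 0.10, adjusted p = 0.0357) and Hsp90ab1 (-0.14 ± 0.06, 0.0411) passed less firmly, since 10 and 14 of the 24 libraries each ended the call (up to 0.0726 and 0.0832). The ranges of all 6 genes overlapped between the genotypes.

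The other members called higher lay at 0.11 to 0.21 log2. Hspa14, a ribosome-associated HSP70 relative (0.20 ± 0.04 log2, limma adjusted p = 0.000202), Cdc37 (0.15 ± 0.03, 0.000158), Dnaja3 (0.15 ± 0.03, 0.000242) and Bag1, an HSP70 exchange factor (0.11 ± 0.03, 0.00642), were higher in KO on the deposited scale. So were Hsf1 (0.16 ± 0.06, 0.0195), Hspbp1, another exchange factor, Dnajb2 and Dnajb4. With median-of-ratios scaling these 8 lay between -0.03 and 0.06 log2 and none passed. The calls of Dnajb2 and Dnajb4 were also lost without any 1 of 5 and 9 libraries (up to 0.0605 and 0.0707), and that of Dnajb2 without both doubted ones (0.0606).

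The remaining members passed no genotype test on the deposited scale with all transcripts and libraries. They were Hspa4, Hspa4l, Hsph1, Bag3, Hspa8, Hspa9, Trap1, Hspb1, Hspb8, Hsf2, Dnaja2, Dnajb1, Dnajb5, Dnajb6, Chordc1, Stip1, Ahsa1, Fkbp4 and Ptges3, with differences from -0.20 (Hsph1) to 0.17 log2 (Hspb1). With median-of-ratios scaling 7 of them passed as lower: Hspa9 (-0.14 log2), Trap1 (-0.12), Dnaja2 (-0.14), Stip1 (-0.16), Ahsa1 (-0.26), Hsph1 (-0.35) and Hspb8 (-0.30, limma adjusted p = 0.0288). Without both doubted KO libraries Hsph1 (-0.32 log2, limma adjusted p = 0.0272) and Ahsa1 (-0.16, 0.029) passed as lower. Dnajb6, a J protein that holds back aggregation, depended on its transcripts, as did Hspa4 and Dnajb5: with protein-coding transcripts alone Dnajb6 fell by 0.19 ± 0.04 (limma adjusted p = 0.000325), and Hspa4 (0.18 log2, 0.00194) and Dnajb5 (0.17, 0.0400) were higher in KO. With all transcripts Hspa4 lay at the threshold (0.0501) and passed without any 1 of 8 libraries, and Dnajb5 passed without KO ZT16 B (0.0403). The WT wave of Hspa4 also passed with protein-coding transcripts alone (0.000956), and the higher level of Dnajb4 did not (0.0645). The transcript Dnajb6-203 was at 43.8 ± 3.69 TPM in WT and 37.3 ± 2.86 in KO (SD, n = 12), while the non-coding Dnajb6-204 was at 5.09 ± 7.82 and 15.7 ± 20.8 TPM. The small heat shock proteins Hspb1 and Hspb8 had no call on the deposited scale with both genotypes in the fit. With WT fitted alone Hspb1 had a wave (limma adjusted p = 0.0176). Hspb1 was at 7.23 to 24.8 TPM in WT and 9.44 to 34.2 in KO, and Hspb8 was at 1.89 to 4.34 and 1.99 to 2.81. Bag3, the exchange factor of chaperone-assisted autophagy, was at 10.9 ± 2.14 TPM in WT and 11.7 ± 1.97 in KO (SD, n = 12).

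A further 69 chaperone genes outside the list were counted beside it: the cytosolic chaperonin CCT with prefoldin, other cytosolic co-chaperones, and mitochondrial import chaperones and proteases. In WT, 14 of the 69 had a wave (4 of 14, 8 of 31 and 2 of 24 in these 3 sets), against 13.7% of all genes. Those with the smallest p were Ubqln1, a shuttle to the proteasome (0.57 ± 0.07 log2 at 21.7 h, limma adjusted p = 0.000137), the CCT subunits Cct5 (0.32 ± 0.05 at 21.8 h) and Cct7 (0.35 ± 0.06 at 20.5 h), and Clpx, the unfoldase of the mitochondrial matrix protease (1.05 ± 0.16 at 1.09 h). Clpx was the only one of the 69 whose rhythm differed between genotypes (adjusted p = 0.00813), against 0.629% of all genes. In KO, 2 had a wave, Ubqln1 (adjusted p = 0.024) and Bag4 (0.0464), against 3.64% of all genes. Over both genotypes 15 did, against 17.5% of all genes. In level, 46 were higher and 4 lower in KO, against 50.9% and 10.0% of all genes. The median difference was 0.15 log2, the same as that of all genes. These calls are on the deposited scale. With median-of-ratios scaling, 22.1% of all genes were higher in KO and 22.2% lower. The 4 lower were Fkbp5, an HSP90 immunophilin induced by glucocorticoids (-0.68 ± 0.17 log2, adjusted p = 0.00247), Ahsa2, Dnajc2 and Timm9.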

How the data were processed

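The authors deposited TPM per transcript for 24 libraries, made with kallisto 0.42.4 on GRCm38 per the submitters' processing notes. The deposited TPM sum to between 999999 and 1000001 per library, so the depth is unknown and its limit on precision cannot be given. Transcripts were summed to genes through GENCODE M21. Of 88198 transcripts, 2079 (1.35% to 2.24% of TPM) matched no gene and were left out. limma 3.58.1 in R 4.3.3 (eBayes with trend and robust options) was fitted to log2(TPM + 0.1) of the 12874 genes averaging 1 TPM or more, with Benjamini-Hochberg adjustment over all of them and a threshold of 0.05. Genotype tests were two-sided and rhythm tests were F tests. Differences of low genes are understated by the pseudocount.

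Genotype was tested with time as a 6-level factor. Rhythm used 24-h cosine and sine terms with a mean per genotype. The tests were first tested on simulated data. The members and lists were chosen with earlier results of these data known. The rule for values per library took Arntl, the members passing a test (up to 8 with the smallest p in each), Hspa1a, Hspa1b, Hsf1, Hsf2 and the mitochondrial members, and up to 4 of the 69 other chaperone genes per test. Hspa8, Dnajb1, Hsph1, Dnaja1, Bag3, Hspb1, Hspb8, Dnajb5 and Dnajb6 were named beside it after their values were seen. The ZT20 contrast, the 12-h wave, the spread over 4 times and the fits without both doubted libraries were also chosen after the data were seen. Alternatives covered pseudocount, filter, scaling, replicate block, eBayes options, transcripts counted, time terms and leaving out each library. Promoter windows came from RefSeq (GRCm38.p6). The 4C-seq libraries were not used here, and the protein tails planned for reading were not analysed here.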

Additional observations from a re-analysis of the deposited data

How the results depend on the processing

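Counts of members called moved with some settings, and so did counts over all genes. With median-of-ratios scaling 22.1% of all genes were higher in KO and 22.2% lower. Without the 20 most abundant genes, 4055 of 12874 genes were higher and 1911 lower. Where no share over all genes is given, a count does not set the members apart. Members higher in KO (11 as reported) became 2 with median-of-ratios scaling, 5 without the 20 most abundant genes and 7 with no time in the model. Lower in KO (6) became 13, 8 and 2 under these settings and 3 with no filter on low values, and ran from 3 to 7 when 1 library was left out. Rhythmic in KO (4) became 7 without the 20 most abundant genes, 7 with protein-coding transcripts only, 1 with time as a 6-level factor, 1 with each genotype fitted alone and 2 in that fit without both doubted libraries, and ran from 2 to 7 when 1 library was left out. ZT20 below its neighbours in WT (0) became 1 without both doubted libraries. Leaving out 1 library gave 12 to 16 members rhythmic in WT (15), 9 to 13 higher in KO and 17 to 23 rhythmic over both genotypes (19). Without both doubted libraries the counts were 10 higher, 8 lower, 16 rhythmic in WT, 6 in KO and 21 over both.

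The genotype difference turned from above to below 0 for 13 of the 36 members with median-of-ratios scaling and for 8 without the 20 most abundant genes. Those called on either side were, with median-of-ratios scaling, Hspa9 (-0.14 log2, limma adjusted p = 0.000646), Hspbp1 (-0.0133), Bag1 (-0.0338), Trap1 (-0.12) and Dnaja2 (-0.14), and Hspa9 without the 20 most abundant genes (-0.0787). Dnajb6 turned with protein-coding transcripts only (-0.19). Beyond the change of scale, the cause was not tested. Libraries A and B share only a letter: the correlation of A minus B between WT and KO was -0.09 to 0.15 over the 6 times. With the letter as a replicate block the counts were 11 higher, 6 lower, 15 rhythmic in WT, 5 in KO, 0 differing and 19 over both. Shares over all genes are not given for this setting. Sequencing depth was not analysed here, so no counting error could be set beside the low levels of Hspa2, Hspb8 and Dnajb5.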
